A study of Mus musculus with 15 samples.

Results

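Glypicans and syndecans are the main heparan sulfate proteoglycans of the cell surface, and 8 of their genes were followed here through mouse liver RNA: Gpc1, Gpc3, Gpc4, Gpc6, Sdc1, Sdc2, Sdc3 and Sdc4. They were found by gene symbol among the 54281 genes of the deposited table, and the set was chosen by the level of Gpc1, which was higher in livers of mice given diethylnitrosamine and a high fat diet. For these genes, differences between such mice and chow mice are therefore given as a description that supports nothing, and only the responses to MCOPPB are read as tests. For Gpc1 itself those responses use the livers by which it was chosen, and are no independent tests. Of the 8 genes, 6 were expressed highly enough to be tested, with at least 22.5 normalized counts in at least 3 livers, and Gpc3 and Gpc6 were not. All 15 mice were male C57BL6J animals aged 9.5 months. The 7 mice called DEN/HFD received diethylnitrosamine (DEN), a liver carcinogen, at 25 mg/kg when 2 weeks old, and after a period on chow were fed a high fat diet (HFD) with 60% of energy from lard for 32 weeks, as a model of progressive fatty liver disease. The 8 chow mice received the vehicle at that age and stayed on chow, so the carcinogen and the diet cannot be told apart in this design. MCOPPB, an agonist of the nociceptin receptor that the series title calls a senolytic, was injected intraperitoneally at 5 mg/kg on 5 days, followed by 2 days of washout, over 3 cycles and 21 days in all, and control mice received saline. There were 3 mice on chow with saline, 5 on chow with MCOPPB, 4 under DEN/HFD with saline and 3 under DEN/HFD with MCOPPB, numbered within each group as the labels number them, with 1 library per mouse.

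Glypicans are held on the outer face of the cell by a lipid anchor and carry their heparan sulfate chains close to the membrane, whereas syndecans span the membrane, carry chains near their outer tip and have a short tail inside the cell. The sulfated chains bind growth factors, morphogens, proteases and lipoproteins, and hand some of them to signalling receptors. In the liver, heparan sulfate on hepatocytes, with Sdc1 as its best known carrier, takes up remnant lipoproteins from the blood. Gpc3 is known as an oncofetal gene that is active in fetal liver and in many hepatocellular carcinomas.

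The coding sequences show where chains can be attached, which differs between the families. Chains are built on serines followed by glycine, which were searched in frame, on the coding strand only, as TCNGGN for one kind of serine codon. The remaining serine codons were searched as AGCGGN as well as with the second motif AGTGGN. The 45 coding bases with most such codon pairs are shown for the glypicans and the syndecans on which most values below rest, from GENCODE M21 transcripts on GRCm38, with the codon pairs in capitals:
Gpc1: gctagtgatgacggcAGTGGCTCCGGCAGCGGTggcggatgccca
Gpc4: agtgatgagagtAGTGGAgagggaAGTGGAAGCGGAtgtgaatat
Sdc1: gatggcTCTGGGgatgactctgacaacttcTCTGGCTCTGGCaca
Sdc3: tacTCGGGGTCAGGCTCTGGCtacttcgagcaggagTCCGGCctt
The Gpc1 window has 3 pairs and lies on the plus strand at chr1:92858027-92858372, across the intron between exons 8 and 9. The Gpc4 window, also with 3 pairs, lies on the minus strand at chrX:52053683-52053817, again across the intron between exons 8 and 9. The Sdc1 window has 3 pairs inside exon 2 at chr12:8789443-8789487, and the Sdc3 window has 4 pairs at chr4:130816941-130818604, across the intron between exons 2 and 3, both on the plus strand. Windows of the 4 glypicans began after 85.9% to 88.0% of the coding sequence, and those of the 4 syndecans after at most 27.8%. Where windows tied, the last one was taken. The Gpc3 window held only 1 of the 2 pairs of its gene, so its late position was set by this rule. The Gpc6 window held 4 pairs, and those of Sdc2 and Sdc4 held 2 each. Among 21523 coding genes searched in the same way, 1.91% had a window with at least 3 such pairs and 0.302% had at least 4. A match is a description of the sequence and does not show that a chain is attached.

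The syndecans share the end of their tail, which binds scaffold proteins with PDZ domains such as syntenin. The last 33 coding bases with the stop codon are shown, since they set apart the pairs within the family, with the bases that are identical in all 4 genes in capitals:
Sdc1: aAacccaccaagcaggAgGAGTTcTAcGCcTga
Sdc2: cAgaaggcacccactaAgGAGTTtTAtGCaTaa
Sdc3: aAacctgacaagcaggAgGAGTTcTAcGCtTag
Sdc4: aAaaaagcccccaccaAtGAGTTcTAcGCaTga
These bases lie in exon 5 of each gene, at chr12:8791775-8791807 and chr4:130822777-130822809 on the plus strand for Sdc1 and Sdc3, at chr15:33032508-33032540 on the plus strand for Sdc2, and at chr2:164426086-164426118 on the minus strand for Sdc4. Of the 33 bases, 12 were identical in all 4 genes. Sdc1 and Sdc3 shared 27 and Sdc2 and Sdc4 shared 24, while the other pairs shared 15 to 20.

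The deposited values were inverted to normalized counts, which are read counts scaled so that libraries can be compared. Depth was estimated at 9.32 M to 18.7 M reads per library, and 13863 to 16675 genes lay above the lowest value of the table, which stands for 0 reads. The hepatocyte markers were high in every library, with a sum of 1621572 to 3790360 normalized counts over 8 genes. RNA integrity numbers are given in 2 label fields that differ. In the first field they were 9.9 to 10 in chow MCOPPB and 8.4 to 9.7 in the other libraries. In DEN/HFD saline 4 the summed markers of stellate cells, endothelial cells and Kupffer cells and macrophages were the lowest of its group. The main differences of members in DEN/HFD mice are therefore also given without it.

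Gpc1, a glypican known as a co-receptor for fibroblast growth factors and other heparin-binding ligands, separated the chow from the DEN/HFD livers. Chow saline livers had 159, 53.2 and 84.2 normalized counts, in the order of mouse number. Chow MCOPPB livers had 62.6, 61.7, 56.5, 70.6 and 35.5. All 8 chow livers thus lay between 35.5 and 159, with chow saline 1 the highest and chow MCOPPB 5 the lowest. DEN/HFD saline livers had 564, 535, 728 and 261 normalized counts, and DEN/HFD MCOPPB livers had 464, 413 and 432. The lowest DEN/HFD liver, DEN/HFD saline 4, was still above the highest chow liver, so the diets did not overlap under either treatment. Of all tested genes, 9.09% with saline and 9.31% with MCOPPB had diet groups that did not overlap. The share over both treatments together was not computed.

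Mean Gpc1 on chow was 98.7 ± 54.2 normalized counts (SD, n = 3) with saline and 57.4 ± 13.2 (n = 5) with MCOPPB. Under DEN/HFD it was 522 ± 193 (n = 4) with saline and 436 ± 25.8 (n = 3) with MCOPPB. The ratio of means between DEN/HFD and chow was 5.29 with saline and 7.60 with MCOPPB. On the deposited log2 scale, which compresses differences at low counts, DEN/HFD was higher by 1.77 ± 0.25 (moderated SE, limma) with saline and by 1.99 ± 0.24 with MCOPPB. Without DEN/HFD saline 4 the difference with saline was 2.02 ± 0.22. Gpc1 (ENSMUSG00000034220.7) lies at chr1:92831645-92860779 (GRCm38, plus strand). It overlaps the protein-coding gene Ankmy1 and the antisense genes Gm29481 and Gm29480 on the other strand. The library kit was directional, but whether reads were counted by strand is not given in the sources used here. Since these are whole livers, a change in the share of a cell type and a change in RNA per cell cannot be told apart for any gene.

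**Figure D1:**
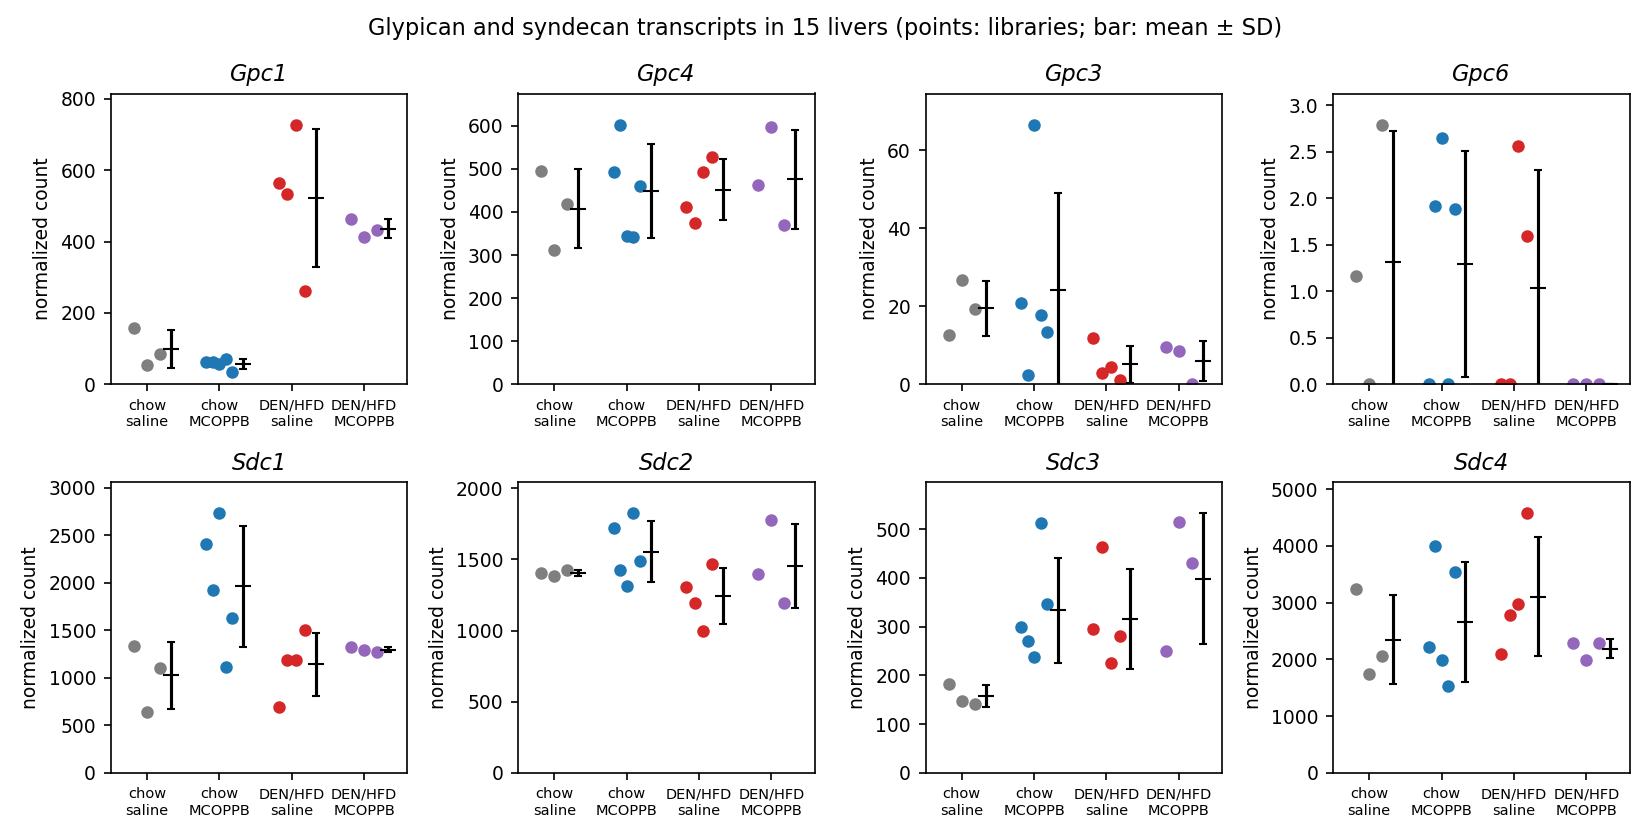
Normalized counts (linear axes from 0) of the 8 glypican and syndecan genes in each of 15 livers, by group, with points for libraries and bars for the group mean ± SD. The 7 DEN/HFD livers lie between 261 and 728 for Gpc1, above all chow livers, while the groups overlap widely for Gpc4, Sdc2 and Sdc4.

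Gpc4, a glypican that also occurs in a released form linked to insulin signalling, was the most abundant glypican and varied little between groups. It stood at 495, 311 and 418 normalized counts in chow saline and at 492, 603, 345, 342 and 459 in chow MCOPPB. Under DEN/HFD it stood at 412, 374, 494 and 527 with saline and at 462, 596 and 369 with MCOPPB. The lowest and the highest value, 311 and 603, both came from chow livers. Gpc4 (ENSMUSG00000031119.4) lies at chrX:52053021-52165252, near Gpc3 (ENSMUSG00000055653.13) at chrX:52272426-52613950, both on the minus strand.

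Gpc3, the oncofetal member, was low in all livers and reached the level needed for testing in only 2 of 15 libraries. Chow saline livers had 12.6, 26.6 and 19.3 normalized counts, and DEN/HFD saline livers had 12.0, 2.84, 4.51 and 1.06. Among saline mice every DEN/HFD liver was therefore below every chow liver, although 12.0 and 12.6 are close. In that comparison 9.09% of all tested genes had groups that did not overlap. Chow MCOPPB livers had 20.9, 2.30, 66.6, 17.8 and 13.5, and DEN/HFD MCOPPB livers had 9.55, 8.41 and 0, and these groups overlapped. The highest level, 66.6 in chow MCOPPB 3, came from a chow liver. Alpha-fetoprotein (Afp), another oncofetal liver gene, was also low, with 0 to 20.4 normalized counts in chow livers and 5.39 to 29.7 in DEN/HFD livers.

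Gpc6, a glypican known for its role in bone growth, was barely detected. It was above the lowest value in 7 of 15 libraries, at 2.79 normalized counts or less, and was listed at 0 in all 3 DEN/HFD MCOPPB livers. Of the glypicans outside the set, Gpc2 was above the lowest value in 2 libraries and Gpc5 in none. Gpc6 (ENSMUSG00000058571.11) lies at chr14:116925315-117976544, plus strand.

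Among the syndecans, Sdc4, a widely expressed member that works with integrins at focal adhesions, had the highest level. Chow saline livers had 3244, 1741 and 2059 normalized counts and chow MCOPPB livers had 2225, 3995, 1988, 1525 and 3536. DEN/HFD saline livers had 2099, 2776, 2972 and 4576, and DEN/HFD MCOPPB livers had 2279, 1990.2 and 2285. The 4 groups overlapped, with the highest value in DEN/HFD saline 4, the liver with the lowest Gpc1 of the DEN/HFD mice. Sdc4 (ENSMUSG00000017009.3) lies at chr2:164424247-164443887, minus strand.

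Sdc2, known from mesenchymal and endothelial cells and also present in liver, was the steadiest member. It stood at 1402, 1380.0 and 1423 normalized counts in chow saline, a spread of 21.6 (SD, n = 3) around 1402. Chow MCOPPB livers had 1721, 1425, 1314, 1825 and 1486. Under DEN/HFD the values were 1308, 1193, 996 and 1467 with saline and 1396, 1777 and 1196 with MCOPPB. Every group overlapped every other in its range. Sdc2 (ENSMUSG00000022261.6) lies at chr15:32920723-33034935, plus strand.

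Sdc1, the hepatocyte receptor for remnant lipoproteins, reached its highest levels in chow MCOPPB livers. Chow saline livers had 1333, 644 and 1101 normalized counts. Chow MCOPPB livers had 2408, 1926, 2731, 1116 and 1631, so 4 of 5 were above all chow saline livers, and chow MCOPPB 4 was not. DEN/HFD saline livers had 695, 1183, 1186 and 1498, and DEN/HFD MCOPPB livers had 1319.8, 1297 and 1267. The 3 DEN/HFD MCOPPB livers, at 1294 ± 26.5 (SD), spanned a narrower range than any other group. Sdc1 (ENSMUSG00000020592.14) lies at chr12:8771323-8793715, plus strand.

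Sdc3, best known from neurons and also expressed by macrophages, was lowest in chow saline livers. These had 182, 147 and 141 normalized counts. Chow MCOPPB livers had 298, 269.9, 238, 513 and 347, all above them. Under DEN/HFD the livers had 294, 463, 224 and 281 with saline and 250.2, 513 and 430.2 with MCOPPB. The 3 chow saline livers were thus the lowest of all 15, and the other groups overlapped each other. Of all tested genes, 4.77% had groups without overlap for MCOPPB on chow, and 9.09% for DEN/HFD with saline. Sdc3 (ENSMUSG00000025743.14) lies at chr4:130792537-130826319, plus strand, and overlaps the antisense genes Gm12970 and Gm26716.

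Levels of different genes were compared per kilobase of exon. Averaged over the 15 livers, Sdc4 had 1028 ± 345 normalized counts per kb (SD), Sdc2 403 ± 63.2, Sdc1 373 ± 149 and Gpc4 168 ± 33.9. Gpc1 and Sdc3 followed at 51.4 ± 45.5 and 51.1 ± 20.6, Gpc3 at 5.40 ± 6.11 and Gpc6 at 0.151 ± 0.178. Within single livers, Sdc4 exceeded Sdc2, Sdc1 exceeded Gpc4, Gpc4 exceeded Gpc1 and Sdc3 exceeded Gpc3 in 15 of 15. Gpc3 exceeded Gpc6 in 14 of 15, and in the remaining liver both were listed at 0. For the other neighbours the order varied between livers. Sdc2 exceeded Sdc1 in 10 of 15 livers but in only 1 of 5 chow MCOPPB livers. Gpc1 exceeded Sdc3 in 1 of 8 chow livers and in 6 of 7 DEN/HFD livers.

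The make-up of the glypican RNA therefore differed between the diets. Per kb, Gpc1 made up 10.1% ± 3.31 of the 4 glypicans (SD, n = 3) in chow saline and 6.07% ± 2.04 (n = 5) in chow MCOPPB. Its share was 36.5% ± 10.9 (n = 4) in DEN/HFD saline and 32.4% ± 5.90 (n = 3) in DEN/HFD MCOPPB. These shares rest on the Gpc1 levels that led to the choice of genes and are no independent result. The summed glypican level was 137 to 240.4 per kb in chow livers and 223 to 329 in DEN/HFD livers, with Gpc4 still the largest part in each. The syndecan sum was far higher, at 1268 to 2653 per kb over all livers, and glypicans made up 7.48% to 15.9% of the RNA of both families.

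**Figure D2:**
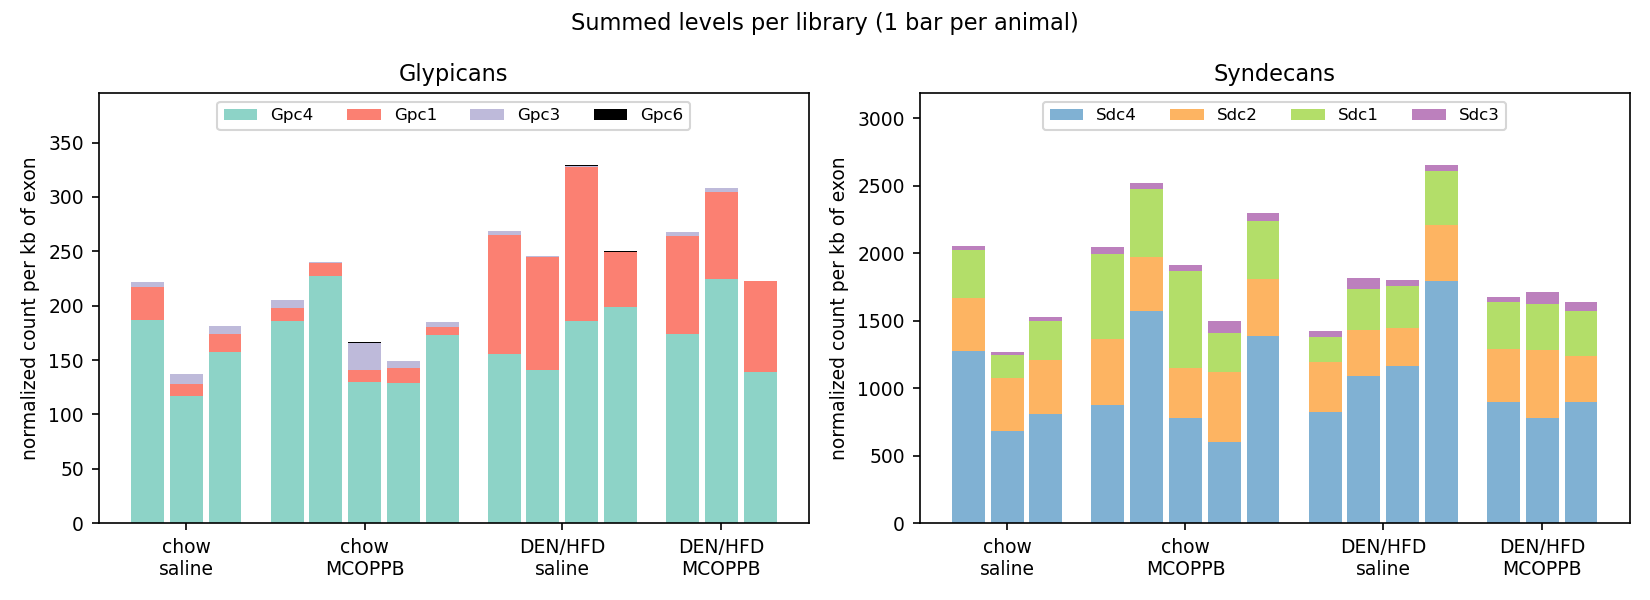
Stacked bars of normalized counts per kb of exon in each of 15 livers, 1 bar per mouse, for the glypicans (left) and the syndecans (right). The Gpc1 part is wide in all 7 DEN/HFD livers, at 20.2% to 42.8% of the glypican sum, and narrow in the 8 chow livers, at 3.71% to 13.8%.

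MCOPPB on chow was compared with saline on chow to ask what the compound changed in livers without the carcinogen and the diet. None of the 6 tested members was called at an adjusted p under 0.05 (limma, Benjamini-Hochberg over 11568 genes), where 0.32% of all genes were called. An unadjusted p under 0.05 was found for 2 members, Sdc3 and Sdc1, and for 1048 of all 11568 genes. Sdc3 was higher with MCOPPB by 0.78 ± 0.23 on the log2 scale (95% interval 0.29 to 1.27, limma adjusted p = 0.245). Its groups did not overlap, which held for 4.77% of all genes. Means were 333 ± 108 normalized counts (SD, n = 5) with MCOPPB and 157 ± 22.5 (n = 3) with saline.

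Sdc1 was higher with MCOPPB on chow by 0.87 ± 0.28 (95% interval 0.28 to 1.46, limma adjusted p = 0.293), with means of 1962 ± 636 (n = 5) and 1026 ± 351 (n = 3) normalized counts. Its difference was 0.60 ± 0.30 without chow saline 2, the liver with the lowest Sdc1. Gpc1 was lower by 0.38 ± 0.24 (log2 difference -0.38, 95% interval -0.89 to 0.13, limma adjusted p = 0.689). For Gpc4, Sdc2 and Sdc4 the log2 differences were 0.11 ± 0.20, 0.13 ± 0.18 and 0.13 ± 0.30. Their 95% intervals, -0.31 to 0.53, -0.24 to 0.50 and -0.50 to 0.76, include 0. The median over the 6 members was 0.13, beside 0.00 over all tested genes.

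Under DEN/HFD the same comparison called none of the 6 members, where 0.0259% of all genes were called. None of the members had an unadjusted p under 0.05, while 548 of all 11568 genes had. The log2 differences between MCOPPB and saline ranged from -0.44 ± 0.31 for Sdc4 to 0.26 ± 0.24 for Sdc3. Gpc1 differed by -0.15 ± 0.25 (95% interval -0.69 to 0.38), and by -0.40 ± 0.22 without DEN/HFD saline 4. Without that liver Sdc1 differed by 0.35 ± 0.31, Sdc3 by 0.23 ± 0.27 and Sdc4 by -0.24 ± 0.31, and again no member was called. Every interval included 0, that of Sdc4 reaching from -1.10 to 0.22. None of the members' groups was free of overlap, while 6.96% of all genes had groups that did not overlap.

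Whether MCOPPB acted differently in the diets was tested by the difference between both effects. No member was called, where 0.0692% of all genes were called. None of the members had an unadjusted p under 0.05, while 683 of all 11568 genes had. The effect under DEN/HFD was smaller than on chow by 0.66 for Sdc1 (difference of effects -0.66 ± 0.41, 95% interval -1.51 to 0.20, limma adjusted p = 0.847). For Sdc3 it was -0.52 ± 0.34 (-1.23 to 0.19) and for Sdc4 -0.57 ± 0.43 (-1.48 to 0.34). For Gpc1 it was 0.22 ± 0.35 (-0.51 to 0.96). This is also the difference between the Gpc1 differences of DEN/HFD and chow with MCOPPB and with saline. Those led to the choice of genes, so for Gpc1 it is a description. For Sdc1 and Sdc3 the interval includes 0 and also a loss of the whole difference seen on chow. Without DEN/HFD saline 4 the difference of effects was -0.03 ± 0.29 for Gpc1 and -0.52 ± 0.41 for Sdc1. It was -0.55 ± 0.36 for Sdc3 and -0.37 ± 0.42 for Sdc4, and again no member was called.

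Taking the MCOPPB effect as equal in both diets, again no member was called, where 0.372% of all genes were called. The 2 members with an unadjusted p under 0.05 were again Sdc3 and Sdc1, beside 752 of all 11568 genes. Sdc3 was higher with MCOPPB by 0.53 ± 0.18 (95% interval 0.17 to 0.90, limma adjusted p = 0.384), and Sdc1 by 0.56 ± 0.21 (0.11 to 1.01, limma adjusted p = 0.544). Gpc1 differed by -0.27 ± 0.17 (-0.63 to 0.09). Without DEN/HFD saline 4 these differences were 0.54 ± 0.19 for Sdc3, 0.64 ± 0.21 for Sdc1 and -0.39 ± 0.14 for Gpc1, with no member called. The common effect uses the same libraries as the comparison on chow and is no second observation of it. Gpc3 and Gpc6, fitted without the filter on low values, differed on chow by 0.00 ± 0.25 and -0.01 ± 0.11, on a scale that is strongly compressed at their level.

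**Figure D3:**
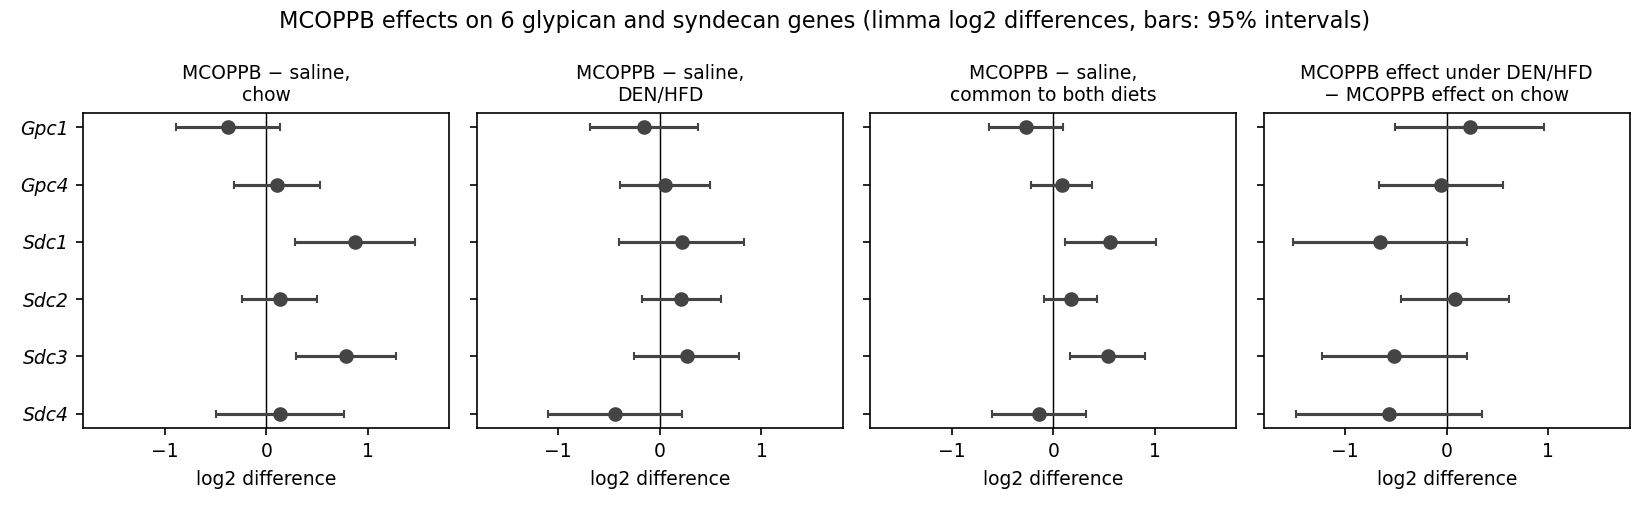
Limma log2 differences (x axis) with 95% intervals for the 6 tested members, for MCOPPB against saline on chow, under DEN/HFD and common to both diets, and for the difference between both effects; the intervals of Sdc1 and Sdc3 lie above 0 on chow and for the common effect. Every interval includes 0 under DEN/HFD and for the difference between both effects, and no member was called in any of the 4 panels.

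Markers of some other cell types, but not of all, were mostly higher with MCOPPB on chow, as Sdc3 was. All 12 markers of Kupffer cells and macrophages were kept, and 9 had a positive log2 difference with MCOPPB on chow (median 0.51, beside 0.00 over all tested genes). None was called and 5 had an unadjusted p under 0.05, beside 1048 of all 11568 genes. Their summed level was 1102 to 1137 normalized counts in chow saline, 1413 to 2696 in chow MCOPPB, 1395 to 2960 in DEN/HFD saline and 1854 to 3292 in DEN/HFD MCOPPB. As for Sdc3, the 3 chow saline livers were the lowest. None of the 12 was at 0 throughout a group. The defining Kupffer cell gene Clec4f had 243 to 306 normalized counts in chow saline and 301 to 757 in chow MCOPPB. The 9 endothelial markers summed to 1250.1 to 1519 in chow saline and 1586 to 1961 in chow MCOPPB, 8 of them with a positive difference. Other lists did not share this. Positive were 4 of 13 kept stellate cell markers (median -0.06), 4 of 8 hepatocyte markers (0.01) and 1 of 3 cholangiocyte markers (-0.27). Of the kept lymphocyte and mesothelial markers, 1 of 2 and 0 of 1 were positive. RNA integrity in the first label field also differed between these groups, at 9.23 ± 0.40 (SD, n = 3) and 9.96 ± 0.05 (n = 5). With this value as a covariate the log2 difference was 0.64 ± 0.35 for Sdc3 and 1.34 ± 0.39 for Sdc1. The part of these cell types in the Sdc3 and Sdc1 levels was not tested.

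In DEN/HFD against chow, the comparison that led to the choice of genes, the count of members called was fixed in part by that choice, and nothing is read from it. It was 1 of 6, Gpc1, with saline, where 0.0519% of all genes were called, and 1 of 6, again Gpc1, with MCOPPB, where 0.571% were. With saline the count was 0 without chow saline 2, chow saline 3 or DEN/HFD saline 3, or with the first RNA integrity value as a covariate, which also brought the count with MCOPPB to 0. The other members are given for their size. With saline, Sdc3 was higher by 0.72 ± 0.24 and its groups did not overlap, as for 9.09% of all genes. Sdc4 differed by 0.38 ± 0.31, Sdc1 by 0.15 ± 0.29, Gpc4 by 0.13 ± 0.21 and Sdc2 by -0.18 ± 0.18. Without DEN/HFD saline 4, Sdc3 differed by 0.75 ± 0.27, Sdc4 by 0.18 ± 0.31 and Sdc1 by 0.01 ± 0.31. With MCOPPB, where 9.31% of all genes had groups that did not overlap, Gpc1 was the one member without overlap. The other differences there were 0.20 ± 0.23 for Sdc3, -0.19 ± 0.30 for Sdc4, -0.51 ± 0.28 for Sdc1, 0.08 ± 0.20 for Gpc4 and -0.10 ± 0.18 for Sdc2. These comparisons use the same saline and MCOPPB libraries as the tests of MCOPPB, so the low Sdc3 in chow saline enters both. Markers of some cell types, but not of all, differed in these comparisons too, with none called. With saline, 10 of 12 markers of Kupffer cells and macrophages were higher under DEN/HFD (median log2 difference 0.60), as were 7 of 9 endothelial (0.23) and 8 of 13 stellate cell markers (0.21), beside 0.01 over all tested genes. With MCOPPB it was 10 of 12 (0.40), 4 of 9 (-0.09) and 10 of 13 (0.43). Other lists did not share this with saline. Higher there were 4 of 8 hepatocyte (-0.03), 1 of 3 cholangiocyte (-0.23) and 2 of 4 liver tumour and oncofetal markers kept (-0.02). Of the kept lymphocyte and mesothelial markers, 1 of 2 and 0 of 1 were higher. With MCOPPB it was 3 of 8 hepatocyte (-0.07), 3 of 3 cholangiocyte (0.31), 2 of 4 oncofetal (0.10), 1 of 2 lymphocyte and 0 of 1 mesothelial markers. Of the 15 stellate cell markers 13 were kept, and Timp1 was at 0 in every chow saline liver. Their sum was 2710.3 to 4617 normalized counts in chow livers and 3167 to 6031 in DEN/HFD livers. The 3167 came from DEN/HFD saline 4, the liver with the lowest Gpc1 of the DEN/HFD mice. This was not particular to stellate cells. That liver was also the lowest DEN/HFD liver for the sums of endothelial (1443), Kupffer cell and macrophage (1395), cholangiocyte (289) and liver tumour and oncofetal markers (63.3). For the sums of hepatocyte, lymphocyte and mesothelial markers it was not the lowest. The part of these cell types in the Gpc1 and Sdc3 levels was not tested.

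The other genes that make, modify, shed or use heparan sulfate were followed in lists of 111 genes, chosen with earlier results of these data known, of which 82 were kept. They form 8 lists, besides Gpc2 and Gpc5, neither of which was kept. With MCOPPB on chow, 1 of the 82 was called, beside the 0.32% of all genes: Papss2, which makes the activated sulfate that all sulfotransferases use. It rose by 1.28 ± 0.24 on the log2 scale (limma adjusted p = 0.0191). An unadjusted p under 0.05 was found for 7 of the 82, beside 1048 of all 11568 genes. Chow saline livers had 1416, 1104 and 1122 normalized counts, and chow MCOPPB livers had 2998, 3257, 2799.6, 2921 and 3324. Each of the 5 treated livers was above every saline liver, and 4.77% of all genes had groups that did not overlap in this comparison. DEN/HFD saline livers had 1106, 1754, 1325 and 2861, and DEN/HFD MCOPPB livers had 1643, 1244 and 1136, and these overlapped. Papss2 (ENSMUSG00000024899.7) lies at chr19:32595790-32667187, plus strand.

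Under DEN/HFD none of the 82 was called with MCOPPB, and 1 had an unadjusted p under 0.05 (limma), beside 548 of all 11568 genes. The difference between both Papss2 effects, -1.58 ± 0.34, was not called (limma adjusted p = 0.147). That difference includes DEN/HFD saline 4, whose Papss2 level of 2861 was the highest under DEN/HFD, and is not given without it. The common MCOPPB effect called none of the 82, with 6 at an unadjusted p under 0.05, beside 752 of all 11568 genes. Papss2 was the only one called between DEN/HFD and chow with MCOPPB, lower by 1.15 (log2 difference -1.15 ± 0.24), a comparison that shares the chow MCOPPB livers. With saline none of the 82 was called between DEN/HFD and chow, and 10 had an unadjusted p under 0.05, beside 1268 of all 11568 genes. The call of Papss2 on chow was lost without chow saline 2 (limma adjusted p = 0.109), without chow saline 3 (0.111) and without chow MCOPPB 5 (0.0598), with differences of 1.22, 1.23 and 1.25. With the first RNA integrity value as a covariate the difference was 1.31 (limma adjusted p = 0.178).

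By role, the 10 kept genes of chain synthesis had a median log2 difference of 0.14 with MCOPPB on chow, 7 of them positive. Among the positive ones were the polymerase subunits Ext1, at 0.32 ± 0.19, and Ext2, at 0.23 ± 0.19, while 3 of the 10 were negative. Of the negative ones, Extl1 had 148 ± 50.8 normalized counts (SD) in chow saline and 84.4 ± 27.6 in chow MCOPPB. An unadjusted p under 0.05 was found for 1 of the 10 (limma). The 8 kept genes of chain modification had a median of 0.12, with 6 positive and 2 negative. Of the positive ones, Ndst1, the N-sulfotransferase, was at 0.43 ± 0.30 and the sulfatase Sulf2 at 0.27 ± 0.29. None of these 8 genes had an unadjusted p under 0.05 (limma). The 10 genes that supply sugar nucleotides and sulfate had a median of -0.05. Medians were 0.16 for 6 secreted and part-time proteoglycans, 0.04 for 5 small leucine-rich and chondroitin sulfate proteoglycans and 0.20 for 14 genes of shedding and cytoplasmic partners. They were 0.05 for 21 heparin-binding ligands and receptors and 0.04 for 8 genes of remnant clearance, beside 0.00 over all tested genes. Of the 21 ligands and receptors, 12 were positive and 9 negative. Among the negative ones, Egfr had 1642 to 3667 normalized counts in chow saline and 570 to 1465 in chow MCOPPB. These did not overlap, as for 4.77% of all genes. The common MCOPPB effect on Egfr, -1.24 ± 0.29, was not called (limma adjusted p = 0.0828). Between DEN/HFD and chow with saline, the list medians ranged from -0.12 for ligands and receptors to 0.16 for the small leucine-rich proteoglycans, and no list had a called gene.

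**Figure D4:**
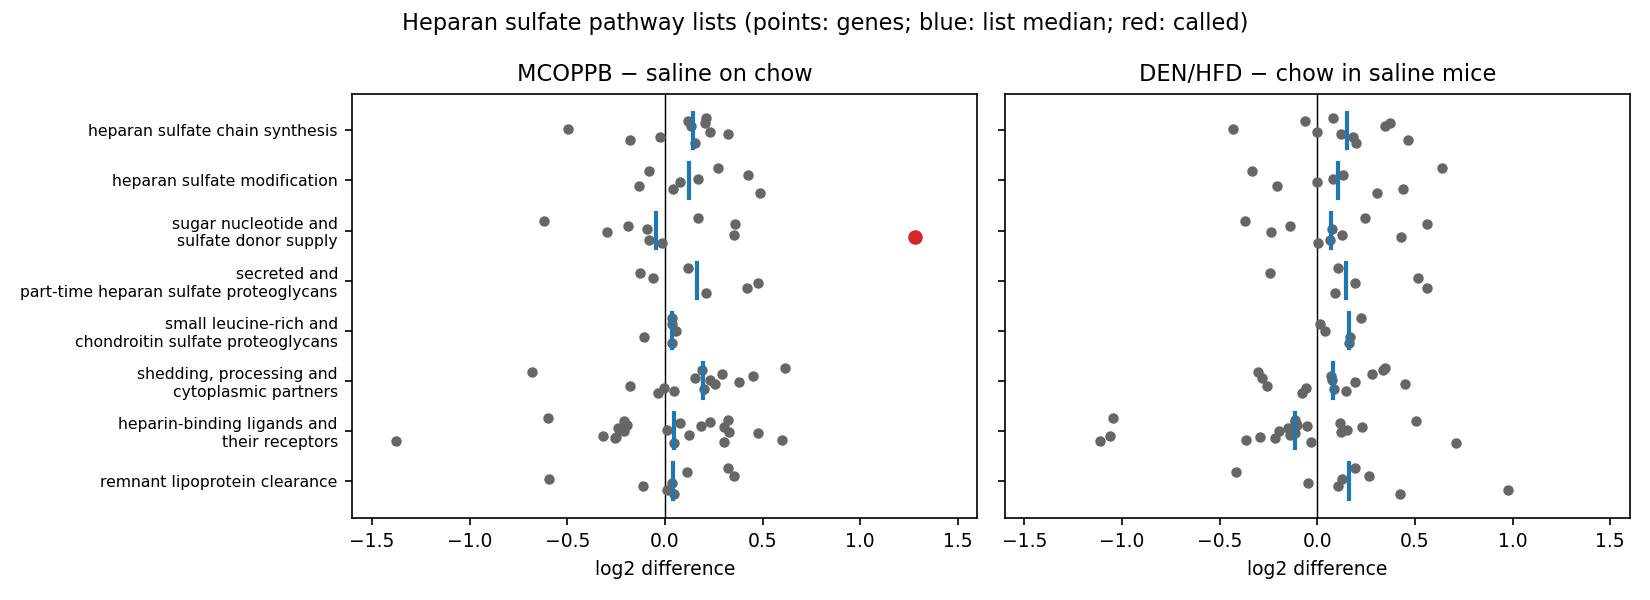
Limma log2 differences (x axis) of the kept genes in 8 lists of the heparan sulfate pathway (rows), for MCOPPB against saline on chow (left) and DEN/HFD against chow in saline mice (right), with a point per gene, the list median in blue and called genes in red. Papss2, at 1.28 on the left, is the only called gene in either panel.

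The genes whose levels followed Gpc1 most closely over the 15 livers were Osbpl3 (r = 0.96), Rexo2 (0.92), B3gat3 (0.90), Cidea (0.90), Cidec (0.90) and Adgrv1 (0.89), by Pearson's r of the log2 values among all tested genes other than the members. The 15 points fall into the same 4 groups from which Gpc1 was chosen, so these values describe the group difference as much as the single livers. Of deviations from the group means, r was 0.82 for Osbpl3, 0.81 for Cidea, 0.73 for Cidec, 0.64 for Rexo2, 0.59 for Adgrv1 and 0.44 for B3gat3. The genes were picked by r over these same livers, which includes the deviations, so these values are no independent support. DEN/HFD saline 4, the lowest of its group for Gpc1, Cidea and Cidec, enters them, and they are not given without it. Osbpl3 encodes an oxysterol-binding protein relative, Rexo2 a mitochondrial RNA exonuclease and Adgrv1 an adhesion receptor. B3gat3 encodes the enzyme that completes the sugar linker on which heparan sulfate chains start, and Cidea and Cidec encode lipid droplet proteins.

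Osbpl3 had 14.5 to 82.5 normalized counts in chow livers and 92.8 to 406 in DEN/HFD livers. B3gat3 had 131 to 221 in chow livers and 224 to 351 in DEN/HFD livers. Rexo2 had 280 to 421 in chow livers and 465 to 671 in DEN/HFD livers. These genes thus separated the diets as Gpc1 did, but they were picked for following Gpc1. Of all tested genes, 9.09% with saline and 9.31% with MCOPPB had diet groups that did not overlap. Chow saline 1 was the highest chow liver for Osbpl3 and B3gat3, and chow MCOPPB 2 for Rexo2. Adgrv1 had 4.69 to 51.7 in chow livers and 51.4 to 508 in DEN/HFD livers. Cidea was listed at 0 in all 5 chow MCOPPB livers and had 75.6, 0 and 10.9 in chow saline, 320, 219, 437 and 4.25 in DEN/HFD saline and 215, 29.4 and 464 in DEN/HFD MCOPPB. Cidec had 0 to 92.6 in chow livers and 20.1 to 864 in DEN/HFD livers. In DEN/HFD saline 4, the liver with the lowest Gpc1 of its diet, Cidea and Cidec were lowest of the DEN/HFD livers, at 4.25 and 20.1, within the range of the chow livers.

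**Figure D5:**
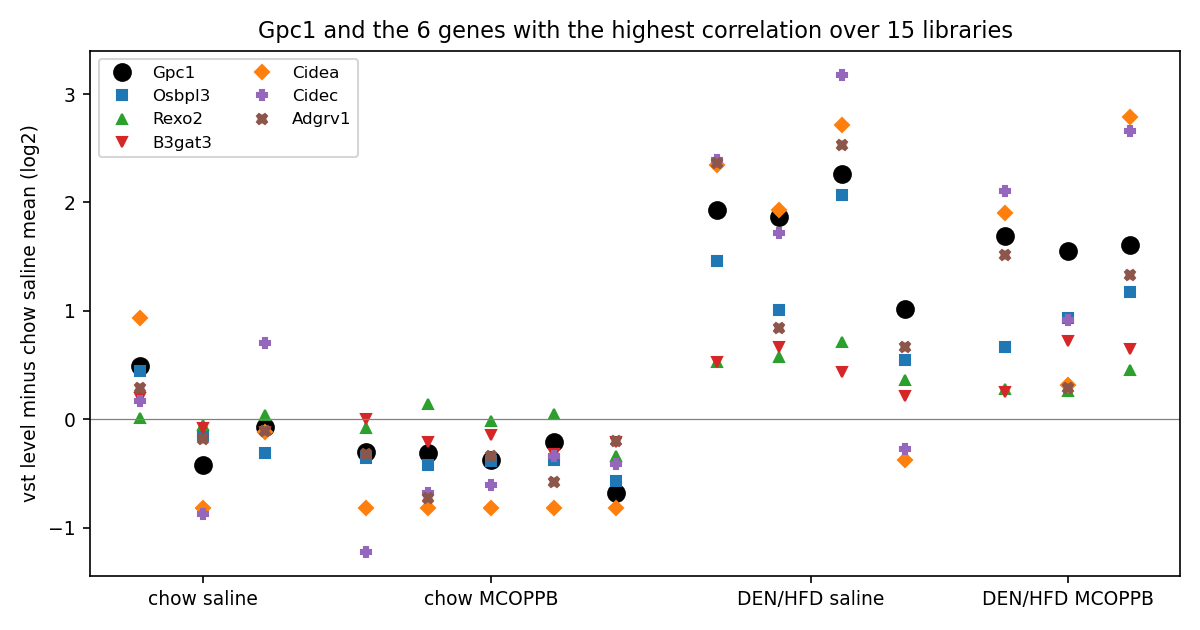
Deposited log2 levels minus the chow saline mean (y axis) of Gpc1 and the 6 genes with the highest correlation to it, with 1 column of points per liver, by group. DEN/HFD livers lie above chow for Gpc1 throughout, while Cidea and Cidec fall back to the chow range in DEN/HFD saline 4.

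Among the members themselves, no pair followed each other that closely. The highest r over the 15 livers was 0.62 between Gpc4 and Sdc4, and 0.68 for deviations from the group means. Gpc1 had r between -0.51, with Sdc2, and 0.28, with Sdc3. These values are descriptions over livers that share groups and sequencing depth.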

How the data were processed

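Liver RNA of 15 mice was measured, 1 library each. The authors deposited variance-stabilised log2 values for 54281 versioned Ensembl genes. Per the submitters' processing notes, Trimmomatic, STAR 2.7.0e, HTSeq and DESeq2 were used with GRCm38 (mm10), and their roles and settings are not given in the sources used here. The lowest log2 value, 5.49, stands for 0 reads. Values were inverted exactly to normalized counts, but whole reads could not be recovered: depth is an estimate, and intervals for counting error are left out. GENCODE M21 supplied symbols and coordinates for 54107 IDs. This copy may not be the annotation the authors used.

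Genes at least 1 log2 unit above the lowest value (22.5 normalized counts) in at least 3 libraries were kept (11568). The test was limma 3.58.1 (R 4.3.3), with 4 group means over 15 libraries, a mean-variance trend and Benjamini-Hochberg adjustment over all kept genes, two-sided, called under 0.05, with 11 residual degrees of freedom. The common MCOPPB effect used additive terms for diet and treatment. Scripts were tested on simulated data. No libraries were identical. The labels number the mice but do not describe cages or batches, so p-values weigh group differences against the spread between these mice only. The numbers in the sample titles and column names form separate runs for chow and DEN/HFD mice. What they stand for is not given, and it cannot be told apart from DEN/HFD. The members, lists and rules were chosen with earlier results of these data known. Named were the members, Gpc2 and Gpc5, list genes called for MCOPPB, up to 4 per list called for DEN/HFD with saline by size of difference, defining cell markers, and the 6 genes most correlated with Gpc1. Other genes named, such as Ext1, Ext2, Extl1, Ndst1, Sulf2 and Egfr, were chosen after their values were seen. Alternatives were a replicate block, other filters, quantile normalization, log2 of normalized counts plus 1, only the groups compared, array weights, no trend, either RNA integrity value as a covariate, and leaving out each library.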

Additional observations from a re-analysis of the deposited data

Results flagged for a closer look

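In groups of 4 or 5 livers, 18 sets of values were examined for a single liver far from the rest. For normally distributed values chance flags about 1 in 20 groups. This rate does not hold where all other livers stand at 0, as in the Gpc2 sets below, since any value above 0 is then flagged. Gpc2 stood at 1.67 normalized counts in chow MCOPPB 5 and at 0 in the other 4 livers of that group. It also stood at 0.962 in DEN/HFD saline 2 and at 0 in the other 3. A single read was worth about 0.846 and 0.949 normalized counts in these libraries, so the values stand for very few reads.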

How the results depend on the processing

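Of 1086 values under alternatives, 1032 kept their direction and their side of the threshold, 23 lost the call, 25 changed sign and 6 were counts of called members that moved. No member was called for MCOPPB under any alternative run. With the first RNA integrity value as a covariate the count of members called between DEN/HFD and chow went from 1 to 0 with saline and with MCOPPB, and with only the groups compared it was 0 with saline. Leaving out single livers gave 0 to 1 with saline, with Gpc1 at 1.56 to 2.02. This count is that of Gpc1 in the comparison by which the genes were chosen, so nothing is read from it. All sign changes were in differences that were not called and were at most 0.22 in size in the main run. The changed values were not all small, and that of Gpc4 reached -0.54. With the first RNA integrity value, the difference between both MCOPPB effects was -0.034 for Gpc1, and DEN/HFD against chow was -0.54 (MCOPPB) and -0.12 (saline) for Gpc4 and -0.094 (saline) for Sdc1. With array weights the difference of effects was 0.0070 for Gpc4, and with the second RNA integrity value the common effect was 0.0070 for Sdc4.

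Leaving out single livers, the difference between both effects ranged from -0.026 to 0.43 for Gpc1, -0.21 to 0.10 for Gpc4 and -0.064 to 0.21 for Sdc2. MCOPPB under DEN/HFD ranged from -0.40 to 0.0090 for Gpc1 and -0.10 to 0.20 for Gpc4, and on chow from -0.042 to 0.23 for Gpc4 and -0.051 to 0.38 for Sdc4. DEN/HFD against chow ranged from -0.074 to 0.22 (MCOPPB) and -0.019 to 0.26 (saline) for Gpc4, -0.13 to 0.35 (saline) for Sdc1 and -0.24 to 0.028 (MCOPPB) for Sdc2. The cause was not tested.

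Sdc3 on chow ranged from 0.64 to 1.04 and Sdc1 from 0.60 to 1.34 over all alternatives, with limma adjusted p of 0.178 to 0.517 and 0.120 to 0.704. Papss2 on chow had limma adjusted p of 0.00162 to 0.178, and between DEN/HFD and chow with MCOPPB it lost its call in 12 of 25 alternatives. The replicate numbers do not pair mice: of 19 same-numbered pairs 5 had a correlation of deviations over 0.1, as had 17 of 64 other pairs. With a replicate block the difference of effects for Gpc1 was -0.071, Papss2 on chow was 1.13 (limma adjusted p = 0.152), and counts of called members did not change. All-gene counts under the block were 23 for MCOPPB on chow (37 without it), 0 under DEN/HFD (3) and 16 for DEN/HFD with MCOPPB (66). Across all settings these ranged from 15 to 51, 0 to 8 and 0 to 285, and from 1 to 52 for DEN/HFD with saline, 2 to 12 for the difference of effects and 3 to 43 for the common effect. Depth limits Gpc2, Gpc3, Gpc5 and Gpc6, which lie near the lowest value.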
